A study of Mus musculus with 18 samples.

Results

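The genes described here are 38 cell cycle and DNA replication genes, a list of common proliferation markers matched by gene symbol and not by any measured level. They were kept in 2 arms by the phase in which they act: 18 S phase genes (Ccne1, Ccne2, Cdc6, Cdt1, Cdc45, Mcm2 to Mcm7, Gins1, Gins2, Pcna, Rrm1, Rrm2, Tyms and Uhrf1) and 20 mitosis genes (Mki67, Top2a, Cdk1, Ccna2, Ccnb1, Ccnb2, Cdc20, Birc5, Aurka, Aurkb, Bub1, Bub1b, Plk1, Kif11, Kif20a, Cenpe, Cenpf, Tpx2, Nusap1 and Prc1). All 38 had a level in each of the 18 libraries, out of 15544 genes with deposited levels. All 38 also passed the filter of a mean of at least 6 log2 units over the libraries, which left 15249 genes for testing.

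RNA was sequenced from mouse lung cells captured on magnetic beads against EpCAM, a surface protein of epithelial cells, from animals aged 10 to 12 weeks. There were 5 libraries of wild type (replicates 1 to 5), 5 of Falcor-/- (6 to 10), 4 of Foxa2+/- (11 to 14) and 4 of Double-Het, which carries Falcor+/-;Foxa2+/- (15 to 18). Foxa2 encodes a transcription factor of the airway and alveolar epithelium, and Falcor is a long non-coding RNA whose gene lies next to it. The animals had no further treatment in the labels, which give neither how the alleles were made, nor sex, nor whether each library came from a separate animal, so the p-values measure the spread between these libraries.

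Cells copy their DNA in S phase: the MCM helicase is loaded onto origins by Cdc6 and Cdt1, fires with Cdc45 and the GINS complex under cyclin E, and PCNA then clamps the polymerases onto DNA while ribonucleotide reductase and thymidylate synthase supply the nucleotides. In G2 and mitosis, cyclin B with Cdk1 drives entry, Aurora and Polo kinases and kinesins build the spindle, Bub1 and Bub1b guard the checkpoint, and Cdc20 ends it. The adult lung epithelium is known to turn over slowly at rest, and transcripts of both arms rise in the fraction of cells that is cycling. In bulk samples such as these, fewer cells of a type and less RNA per cell cannot be told apart.

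Levels are the deposited log2 values, quantile normalized over the 18 libraries, so the depth is unknown and a shift shared by most genes would not be seen. The captured cells carried epithelial transcripts: Sftpc, the surfactant gene of alveolar type 2 cells, lay at 18.56 to 18.73 and Cdh1 at 15.36 to 15.88 in all libraries. The 18.73 is the highest deposited value, a ceiling under quantile normalization, so the range of Sftpc does not compare the libraries. The captured cells also carried markers of other cells. The mean of the 15 endothelial markers ran from 11.80 to 13.28 for wild type, 11.46 to 13.20 for Falcor-/-, 10.67 to 11.16 for Foxa2+/- and 10.22 to 10.79 for Double-Het, and the log2 of their summed level ran from 16.05 to 17.51, 15.76 to 17.43, 15.09 to 15.51 and 14.86 to 15.22. The log2 of the summed level of the 15 macrophage markers ran from 18.63 to 18.82, 18.62 to 18.96, 18.67 to 18.80 and 18.42 to 18.77 in the same order, and that of the 11 lymphocyte markers measured from 13.62 to 15.02, 13.17 to 14.83, 13.77 to 14.66 and 13.47 to 14.52. The mean level of the macrophage markers ran from 12.07 to 13.02 for wild type, 10.77 to 12.88 for Falcor-/-, 12.44 to 12.54 for Foxa2+/- and 11.03 to 12.24 for Double-Het, with 5 of 15 called lower than wild type in Falcor-/- and 5 of 15 in Double-Het. Of the endothelial markers 0, 13 and 13 of 15 were called lower than wild type in Falcor-/-, Foxa2+/- and Double-Het. For 12 mesenchyme markers these counts were 2, 7 and 10, and for 9 alveolar type 1 markers 0, 6 and 7. Of all genes 9.47%, 6.11% and 14.8% were called in either direction. Called or not, 0 of 15 endothelial, 0 of 12 mesenchyme and 3 of 9 alveolar type 1 markers lay above wild type in Falcor-/-. Their median changes there were -0.70, -0.78 and -0.07 log2 units. The log2 of the summed level of the mesenchyme markers ran from 15.05 to 16.48, 14.31 to 15.97, 13.41 to 16.32 and 13.46 to 13.81. No marker of the endothelial, macrophage and lymphocyte lists was at the deposited minimum in every library. The Falcor transcript (9030622O22Rik) had a mean and SD of 6.20 ± 0.68 over the 5 Falcor-/- libraries and 10.18 ± 0.48 over the 5 of wild type, and of 11.70 ± 0.21 and 11.66 ± 0.15 over the 4 each of Foxa2+/- and Double-Het. For Foxa2 these were 12.97 ± 0.08 (wild type), 12.74 ± 0.23 (Falcor-/-), 12.39 ± 0.05 (Foxa2+/-) and 12.36 ± 0.19 (Double-Het).

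The arms are known to be switched on by different promoter elements. E2F factors act on S phase genes, and the cell cycle homology region (CHR), read by the MuvB complex and often spaced downstream of a CCAAT box, acts on G2 and mitosis genes. RefSeq promoter windows (build GRCm38.p6, 250 bases before to 50 after the start) were found for 30 members, 14 of S phase and 16 of mitosis, and were searched on both strands for the E2F letters TTTCCCGC and TTTGGCGC, the CHR letters TTTGAA and TTCGAA, and CCAAT. No letters of 1 motif set contain those of another. The E2F letters stood in 6 of 14 S phase genes (Cdc6, Cdt1, Mcm3, Mcm5, Mcm6 and Mcm7) and in 0 of 16 mitosis genes, and in 1.80% of 27025 genes in all. The CHR letters stood in 3 of 14 S phase genes and 12 of 16 mitosis genes, against 21.7% of all genes, and CCAAT in 10 of 14 and 14 of 16, against 41.1%. A match is a description of these letters and no measure of binding, and the window of Ccne1 held none of them.

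The windows below belong to Pcna and Rrm2, which changed in Falcor-/-, to Mcm6, shown after the search because it holds E2F letters, and to the mitosis markers Mki67 and Cdk1. All are written 5′ to 3′ on the gene's strand, with the motif letters in capitals. The window of Pcna is chr2:132253131-132253430 on the minus strand, that of Rrm2 chr12:24708004-24708303 on the plus strand and that of Mcm6 chr1:128359656-128359955 on the minus strand. Those of Mki67 (chr7:135716330-135716629) and Cdk1 (chr10:69352863-69353162) are on the minus strand.
Pcna: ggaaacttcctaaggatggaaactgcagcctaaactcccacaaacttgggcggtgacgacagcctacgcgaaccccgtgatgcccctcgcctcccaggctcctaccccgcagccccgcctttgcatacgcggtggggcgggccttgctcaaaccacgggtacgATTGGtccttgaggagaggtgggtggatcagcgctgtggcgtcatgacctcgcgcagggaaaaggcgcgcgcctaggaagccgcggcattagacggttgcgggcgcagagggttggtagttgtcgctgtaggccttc
Rrm2: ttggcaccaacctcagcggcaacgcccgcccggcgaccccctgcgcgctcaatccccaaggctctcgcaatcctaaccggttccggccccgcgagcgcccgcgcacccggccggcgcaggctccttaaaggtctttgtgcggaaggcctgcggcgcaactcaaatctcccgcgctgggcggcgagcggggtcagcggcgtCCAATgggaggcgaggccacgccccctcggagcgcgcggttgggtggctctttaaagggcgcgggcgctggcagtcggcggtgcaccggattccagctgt
Mcm6: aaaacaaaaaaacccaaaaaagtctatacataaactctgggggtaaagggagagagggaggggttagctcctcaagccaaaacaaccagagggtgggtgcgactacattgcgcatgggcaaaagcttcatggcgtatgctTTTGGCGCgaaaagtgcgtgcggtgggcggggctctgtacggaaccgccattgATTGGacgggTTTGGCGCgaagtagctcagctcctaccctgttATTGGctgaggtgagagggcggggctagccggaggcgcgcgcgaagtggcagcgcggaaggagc
Mki67: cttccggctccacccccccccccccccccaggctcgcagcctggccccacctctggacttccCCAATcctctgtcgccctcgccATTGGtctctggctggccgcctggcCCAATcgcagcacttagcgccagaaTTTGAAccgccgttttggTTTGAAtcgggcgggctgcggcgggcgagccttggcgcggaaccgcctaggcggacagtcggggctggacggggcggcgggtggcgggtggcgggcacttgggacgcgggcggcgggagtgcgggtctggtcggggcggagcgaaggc
Cdk1: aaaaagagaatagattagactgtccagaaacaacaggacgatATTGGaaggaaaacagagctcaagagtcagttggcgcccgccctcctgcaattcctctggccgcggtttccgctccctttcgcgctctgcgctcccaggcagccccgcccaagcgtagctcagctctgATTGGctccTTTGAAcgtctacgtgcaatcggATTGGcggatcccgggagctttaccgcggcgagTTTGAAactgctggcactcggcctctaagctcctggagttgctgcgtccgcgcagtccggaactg
Pcna and Rrm2 hold a CCAAT box each and no E2F letters of this spelling. The S phase gene Mcm2, whose window is not shown, holds a CCAAT box, a CHR element at -70 and no such E2F letters. The mitosis gene Top2a, also not shown, holds 6 CCAAT boxes and 4 CHR elements. Mcm6 holds E2F letters from positions -110 and -47, counted from the start of the gene. Mki67 and Cdk1 each hold 3 CCAAT boxes and 2 CHR elements. In Cdk1 a CCAAT box at -80 is followed by a CHR at -71, and another at -48 by a CHR at -15.

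Loss of Falcor was compared with wild type first. In this comparison 3 of 18 S phase genes rose, Pcna, Ccne1 and Rrm2, and 0 of 20 mitosis genes passed the test, in which a gene is called below a limma adjusted p of 0.05. Of all 15249 genes, 9.47% were called in either direction and 5.23% were higher. At an unadjusted p below 0.05 there were 6 of 18 S phase and 3 of 20 mitosis genes, against 33.5% of all genes. Of the S phase genes 17 of 18 lay above wild type, with a median change of 0.23 log2 units, and of the mitosis genes 16 of 20 did, with a median of 0.14. Over all genes 54.0% lay above wild type and the median was 0.03.

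**Figure D1:**
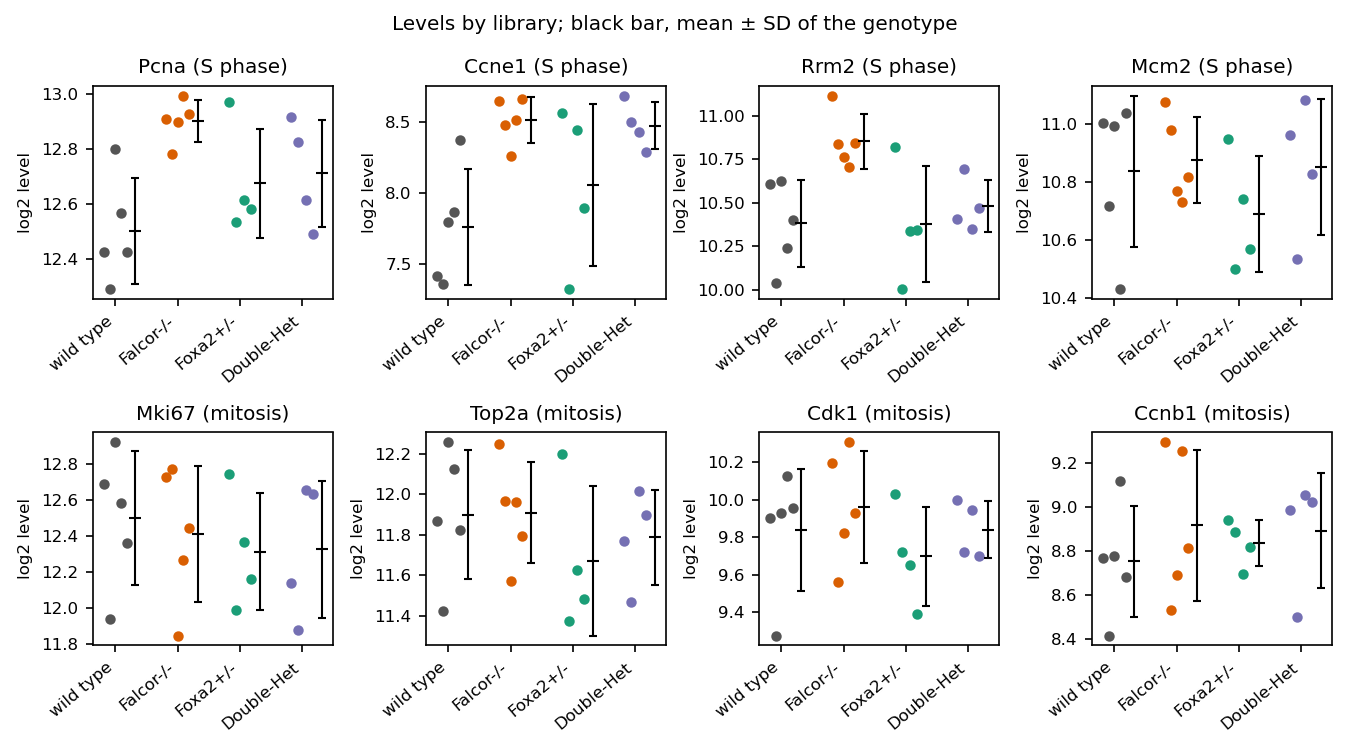
Level (log2 units, vertical axes, which do not start at 0) of the members given in full, 1 point per library, by genotype, with the mean and SD as a bar. Pcna, Ccne1 and Rrm2 sit higher in Falcor-/- than in most wild-type libraries, while the 4 genotypes overlap for Mki67, Top2a, Cdk1 and Ccnb1.

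Pcna encodes the sliding clamp of the replicative polymerases. Its level was 12.42, 12.29, 12.80, 12.57 and 12.43 in wild type and 12.91, 12.78, 12.90, 12.99 and 12.93 in Falcor-/-. The Falcor-/- libraries were close together, and the highest wild-type library, replicate 3, reached just into their range. Pcna rose by 0.40 (SE 0.10), or 1.32-fold, with a limma adjusted p of 0.0291 and an exact permutation p of 0.0159. In Foxa2+/- it was 12.97, 12.53, 12.61 and 12.58 and in Double-Het 12.92, 12.83, 12.61 and 12.49, with 1 or 2 high libraries in each.

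Ccne1 encodes cyclin E1, which with Cdk2 takes cells from G1 into S phase. It was 7.41, 7.36, 7.80, 7.87 and 8.37 in wild type and 8.65, 8.48, 8.26, 8.51 and 8.66 in Falcor-/-. Wild-type replicate 5 lay inside the Falcor-/- range and the other 4 below it. The rise was 0.75 (SE 0.22), or 1.69-fold, with a limma adjusted p of 0.0458 and an exact permutation p of 0.0159. In Double-Het the levels of 8.69, 8.50, 8.43 and 8.29 were as high as in Falcor-/-, and the change from wild type of 0.71 (SE 0.24) had a limma adjusted p of 0.0528. The Foxa2+/- libraries were split, at 8.57, 7.32, 8.44 and 7.90.

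Rrm2 encodes the small subunit of ribonucleotide reductase, which makes deoxyribonucleotides. It was 10.61, 10.04, 10.62, 10.24 and 10.40 in wild type and 11.11, 10.84, 10.76, 10.71 and 10.84 in Falcor-/-. Rrm2 was the only S phase gene whose Falcor-/- libraries all lay above all wild-type libraries, a pattern that 4.22% of all genes showed. It rose by 0.47 (SE 0.14), or 1.38-fold, with a limma adjusted p of 0.0477 and an exact permutation p of 0.00794, the smallest that 5 against 5 libraries can give. In Foxa2+/- it was 10.82, 10.01, 10.34 and 10.35 and in Double-Het 10.41, 10.69, 10.35 and 10.47, inside the wild-type range but for Foxa2+/- replicates 11, above it, and 12, below it, and Double-Het replicate 16, above it.

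These 3 calls were near the threshold. When each of the 10 libraries was left out in turn, Pcna lost its call in 5 runs and Ccne1 and Rrm2 in 8 each. The number of S phase genes called was 0 without wild-type replicate 1 or 2 or Falcor-/- replicate 6, 8 or 9. It was 1 without wild-type replicate 4 or Falcor-/- replicate 10. The runs with 0 or 1 called 2.32% to 7.33% of all genes, against 9.47% with all libraries. The count of S phase genes was also 0 with the endothelial or the macrophage marker mean as a covariate, and 1 in a fit of these genotypes alone or after cyclic loess scaling. Of all genes 1.57%, 4.94%, 3.17% and 9.29% were called in these fits, in the same order. The marker means of the genotypes are given above, and their part in the result was not tested.

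None of the helicase genes passed between Falcor-/- and wild type in limma. The 6 Mcm genes, whose products form the MCM ring, had changes from 0.01 for Mcm4 to 0.17 for Mcm3, none called. Mcm2 was 11.01, 10.72, 10.99, 10.43 and 11.04 in wild type and 11.08, 10.98, 10.77, 10.73 and 10.82 in Falcor-/-. The groups overlapped throughout, and the change of 0.04 had a 95% interval from -0.24 to 0.32. Genes that load or start the helicase had larger changes that did not pass: 0.28 for the loader Cdt1 (limma adjusted p = 0.0534), 0.35 for Cdc45 (limma adjusted p = 0.113) and 0.55 for the GINS gene Gins2 (limma adjusted p = 0.118). Cdt1 was 9.97 to 10.18 in wild type and 10.18 to 10.55 in Falcor-/-, so that the groups met at their edges. It was called with a filter at a mean of 8, with library weights, without the intensity trend and without wild-type replicate 5.

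**Figure D2:**
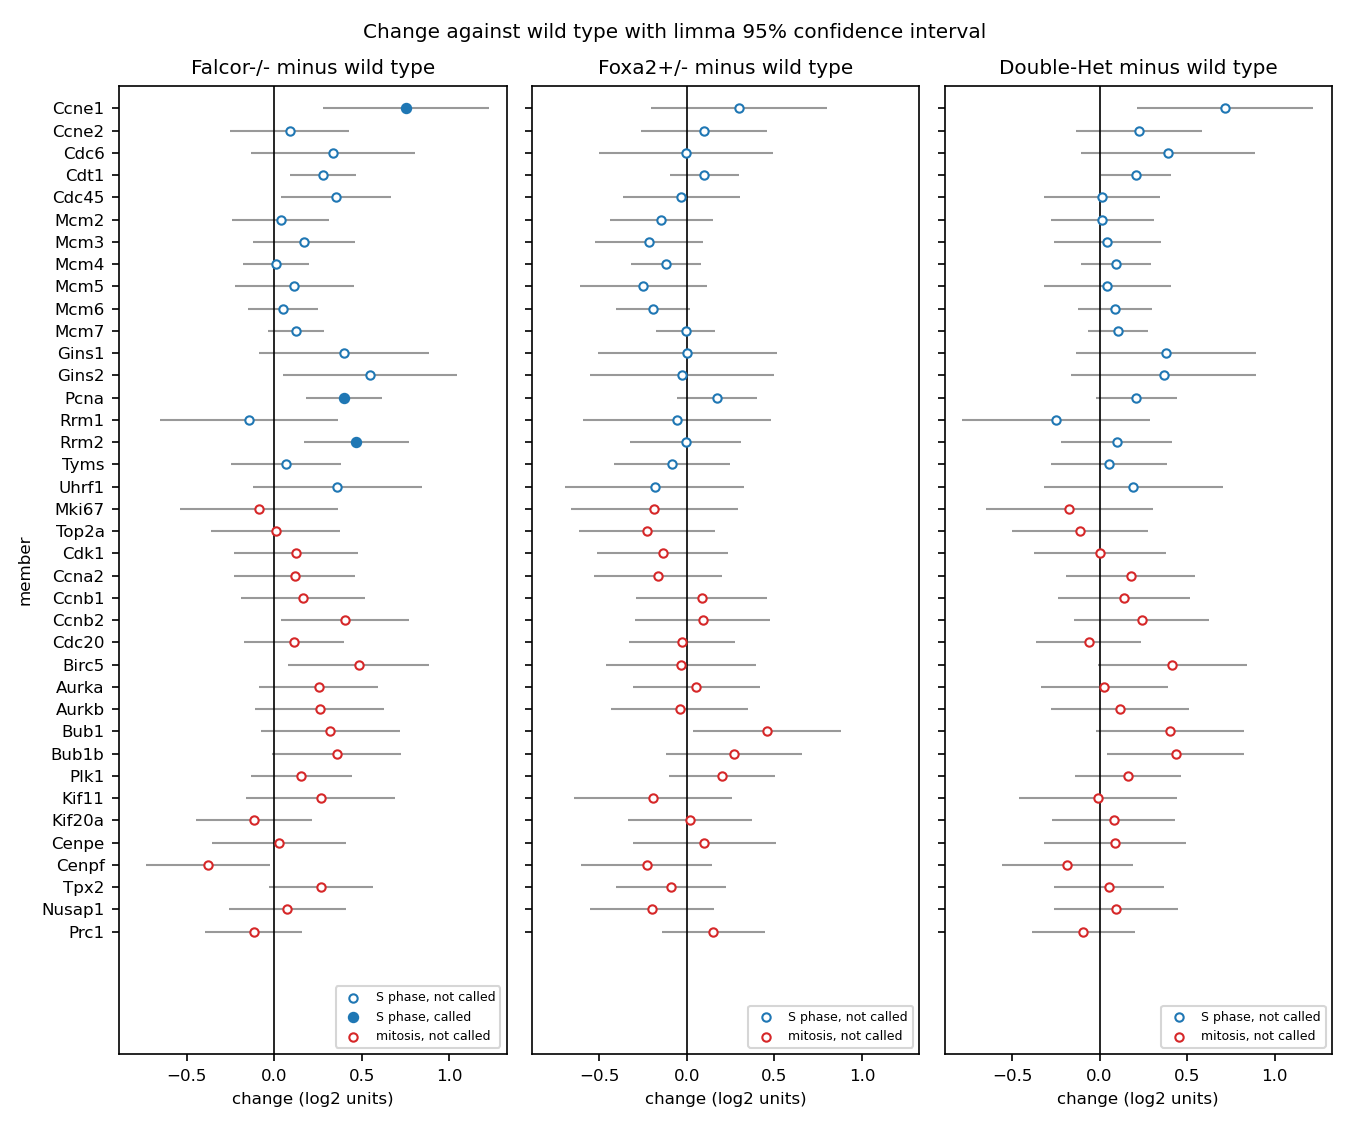
Change of each of the 38 members from wild type (log2 units, horizontal axis) in Falcor-/-, Foxa2+/- and Double-Het, with the limma 95% confidence interval; filled points passed the test. Only Ccne1 (0.75), Pcna (0.40) and Rrm2 (0.47) in Falcor-/- are filled.

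Mki67, the gene of the proliferation antigen Ki-67, gave no difference that stood out from its spread. It was 12.69, 11.94, 12.92, 12.58 and 12.36 in wild type, 12.73, 12.77, 11.85, 12.27 and 12.45 in Falcor-/-, 12.74, 11.99, 12.37 and 12.16 in Foxa2+/- and 12.14, 11.88, 12.66 and 12.63 in Double-Het. Each genotype held a library below 12 and others well above it. The change in Falcor-/- was -0.09 with a 95% interval from -0.54 to 0.36 (limma adjusted p = 0.796).

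Top2a, the topoisomerase that untangles sister chromatids, was 11.87, 11.42, 12.26, 12.12 and 11.82 in wild type and 12.25, 11.97, 11.57, 11.96 and 11.80 in Falcor-/-. It was 12.20, 11.37, 11.63 and 11.48 in Foxa2+/- and 11.77, 11.47, 12.02 and 11.89 in Double-Het. All 4 genotypes overlapped, and the change in Falcor-/- was 0.01 with an interval from -0.36 to 0.38.

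Cdk1, the kinase of mitotic entry, was 9.90, 9.28, 9.93, 10.12 and 9.95 in wild type, 10.20, 9.56, 9.82, 10.31 and 9.93 in Falcor-/-, 10.03, 9.72, 9.65 and 9.39 in Foxa2+/- and 10.00, 9.72, 9.94 and 9.70 in Double-Het. Its partner Ccnb1, cyclin B1, was 8.77, 8.41, 8.78, 9.12 and 8.68 in wild type and 9.30, 8.53, 8.69, 9.26 and 8.82 in Falcor-/-. Ccnb1 was 8.94, 8.89, 8.70 and 8.82 in Foxa2+/- and 8.99, 8.50, 9.05 and 9.02 in Double-Het. Neither gene separated the genotypes: the changes in Falcor-/- were 0.12 for Cdk1 (interval -0.23 to 0.48) and 0.17 for Ccnb1 (interval -0.19 to 0.52). The interval of Mki67 reached down to -0.54, so that a fall of this gene up to that size remained compatible with its levels.

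Among the other mitosis genes, Birc5, the survivin gene of the chromosomal passenger complex, had the largest change in Falcor-/-, 0.48 (SE 0.19, limma adjusted p = 0.0959). It was 9.14, 8.54, 9.48, 9.10 and 9.22 in wild type and 9.81, 9.22, 9.55, 9.79 and 9.52 in Falcor-/-, and the groups overlapped. The cyclin B2 gene Ccnb2 had 0.41 (limma adjusted p = 0.114), and Cenpf, a kinetochore gene, was the furthest below wild type at -0.38 (limma adjusted p = 0.127). The test called Ccnb2 with library weights and Birc5 without Falcor-/- replicate 7, which gave 1 mitosis gene each.

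Loss of a Foxa2 copy was compared with wild type next. In Foxa2+/- 0 of 18 S phase and 0 of 20 mitosis genes passed, where 6.11% of all genes did. At an unadjusted p below 0.05 there were 0 S phase genes and 1 mitosis gene in limma, the checkpoint kinase gene Bub1, against 19.2% of all genes. The S phase median was -0.03 and the mitosis median -0.03, against 0.04 over all genes. Above wild type lay 5 of 18 and 9 of 20 genes, against 59.4% of all genes. Bub1 was 10.15, 9.97, 10.09 and 10.18 in Foxa2+/- and 9.61, 9.80, 10.02, 9.48 and 9.27 in wild type. Only wild-type replicate 3 reached the Foxa2+/- levels, and the change was 0.46 (SE 0.20, limma adjusted p = 0.214).

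Foxa2+/- replicate 11 stood apart from the other 3 libraries of its genotype in both arms. It was the highest of the 4 in 15 of 18 S phase genes and in 17 of 20 mitosis genes, against 25.2% of all genes. Cdc45, which joins the active helicase, was 9.16 there and 8.44, 8.46 and 8.43 in replicates 12, 13 and 14. Uhrf1, which keeps DNA methylation through replication, was 10.76 against 9.73, 9.89 and 9.80. Mcm6 was 11.97 against 11.56, 11.55 and 11.48. Without replicate 11 the S phase median in Foxa2+/- against wild type was -0.19.

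**Figure D3:**
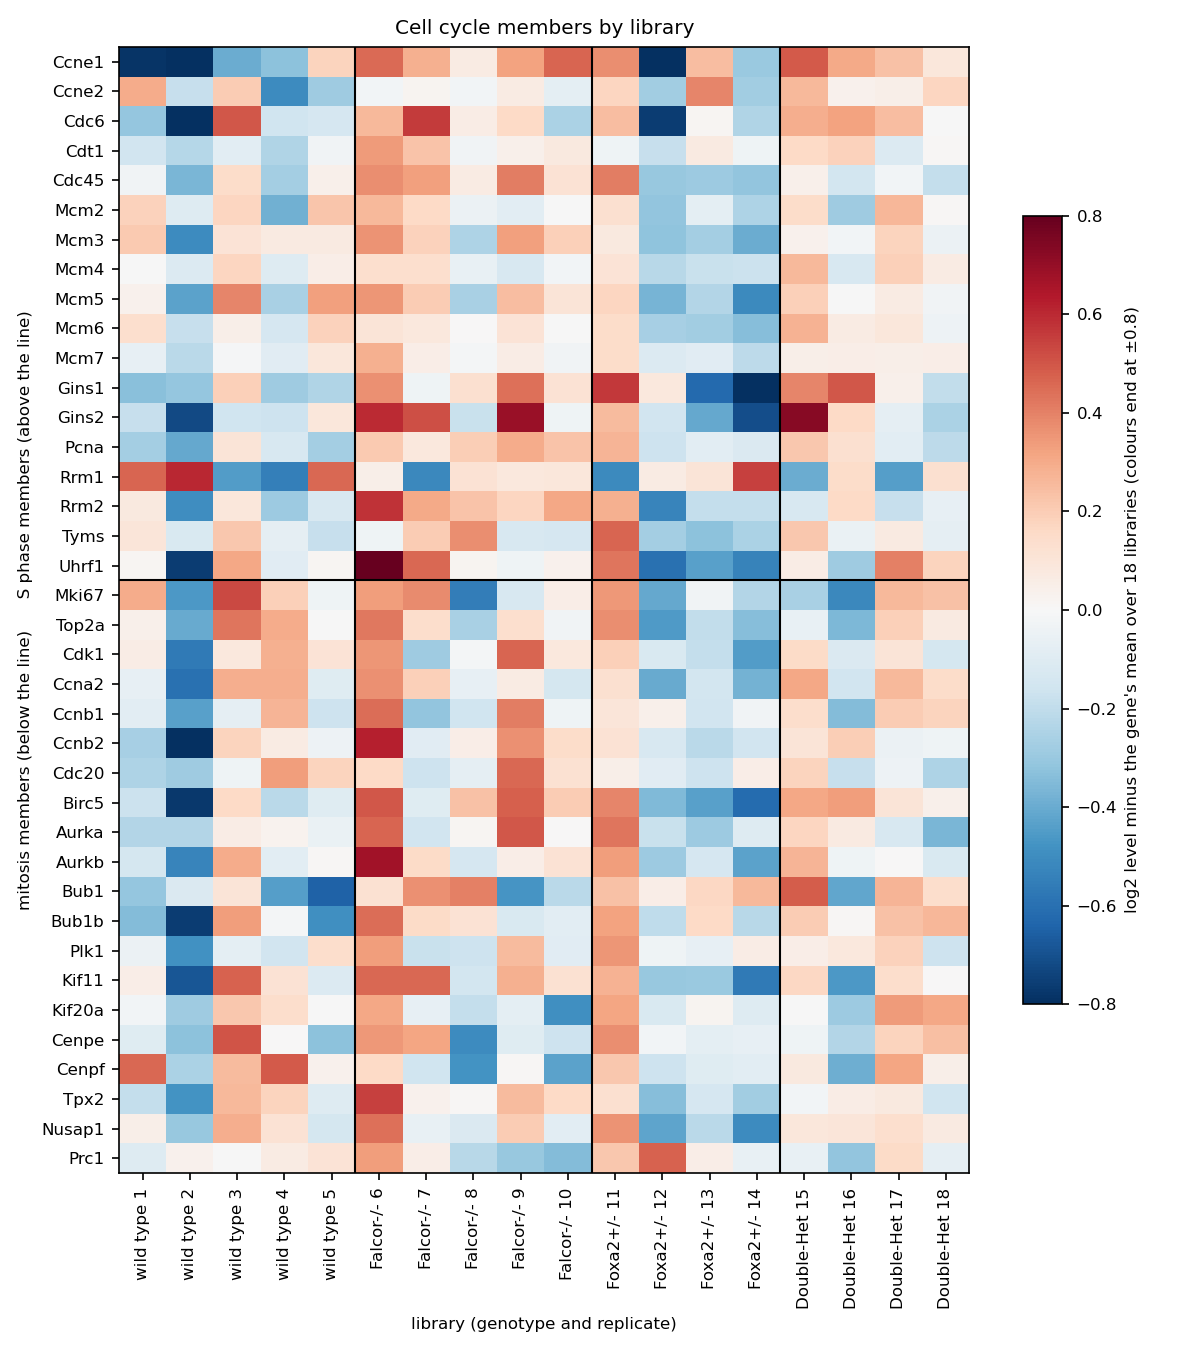
Level of each member in each library minus its mean over the 18 libraries (log2 units, colours ending at 0.8 on either side), S phase genes above mitosis genes, libraries grouped by genotype. Foxa2+/- replicate 11 and Falcor-/- replicate 6 are columns of high values and wild-type replicate 2 a column of low values in most members of both arms, Rrm1 among the exceptions.

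Libraries of the other genotypes also moved in both arms. Wild-type replicate 2 was the lowest of 5 in 12 of 18 S phase and 16 of 20 mitosis genes (15.8% of all genes), and wild-type replicate 3 the highest in 9 and 14 (25.0% of all genes). Falcor-/- replicate 6 was the highest of 5 in 8 and 15 (15.3% of all genes). The mean over the S phase genes ran from 9.80 to 10.23 in wild type, 10.17 to 10.45 in Falcor-/-, 9.84 to 10.35 in Foxa2+/- and 10.13 to 10.33 in Double-Het. The mean over the mitosis genes ran from 9.52 to 10.18, 9.85 to 10.35, 9.75 to 10.22 and 9.81 to 10.11. The S phase means of wild type and Falcor-/- thus overlapped from 10.17 to 10.23, and the mitosis means from 9.85 to 10.18.

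Each of the 20 mitosis genes varied more among libraries of a genotype than at least 50.5% of the genes tested. The median SD within genotypes was 0.27 over the mitosis genes and 0.23 over the S phase genes, against 0.21 over all genes tested. It was lowest for Mcm7 (0.11), Cdt1 (0.12), Mcm4 (0.14), Mcm6 (0.15) and Pcna (0.17), and highest for Rrm1 (0.41), Uhrf1 (0.39), Gins2 (0.38) and Mki67 (0.37).

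Rrm1, the large subunit of ribonucleotide reductase, did not follow Rrm2. Singled out after its values were seen, it took 3 separate levels, none confined to a single genotype but unevenly spread over the genotypes. The lowest 6 libraries (wild-type 3 and 4, Falcor-/- 7, Foxa2+/- 11, Double-Het 15 and 17) lay at 11.49 to 11.64. The next 8 (Falcor-/- 6, 8, 9 and 10, Foxa2+/- 12 and 13, Double-Het 16 and 18) lay at 12.09 to 12.18 and the highest 4 (wild-type 1, 2 and 5, Foxa2+/- 14) at 12.50 to 12.64. The middle level thus held no wild-type library, and the highest held no Falcor-/- or Double-Het library. The gaps between these levels were 0.45 and 0.31, while neighbours within a level differed by at most 0.08. No comparison between genotypes called Rrm1, and its change in Falcor-/- was -0.14 (SE 0.24).

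Over the 18 libraries the genes most like Rrm1, by Pearson r among all genes tested, were 4 Trim genes that follow it on chromosome 7 within 9 places among the tested genes: Trim12c (r = -0.96), Trim68 (r = -0.91), Trim34b (r = 0.88) and Trim34a (r = -0.81). Mt3 (r = 0.81) on chromosome 8 and Tm7sf3 (r = 0.80) on chromosome 6 came next. Trim12c was 10.54 to 11.00 in the libraries with the lowest Rrm1, 9.66 to 10.12 in the middle ones and 8.52 to 9.07 in those with the highest, without overlap. Trim68 was 11.27 to 11.50, 10.76 to 11.23 and 10.38 to 10.53. Among the genes between them, Trim6 at 4 places had r = 0.78, while r was -0.28 for Trim21, just after Rrm1, 0.29 for Hbb-bs at 3 places and 0.31 for Stim1, just before Rrm1. These libraries were ranked by Rrm1 itself, so the values are a description, and Trim12c, Trim34a and Trim34b have close copies that may share reads.

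**Figure D4:**
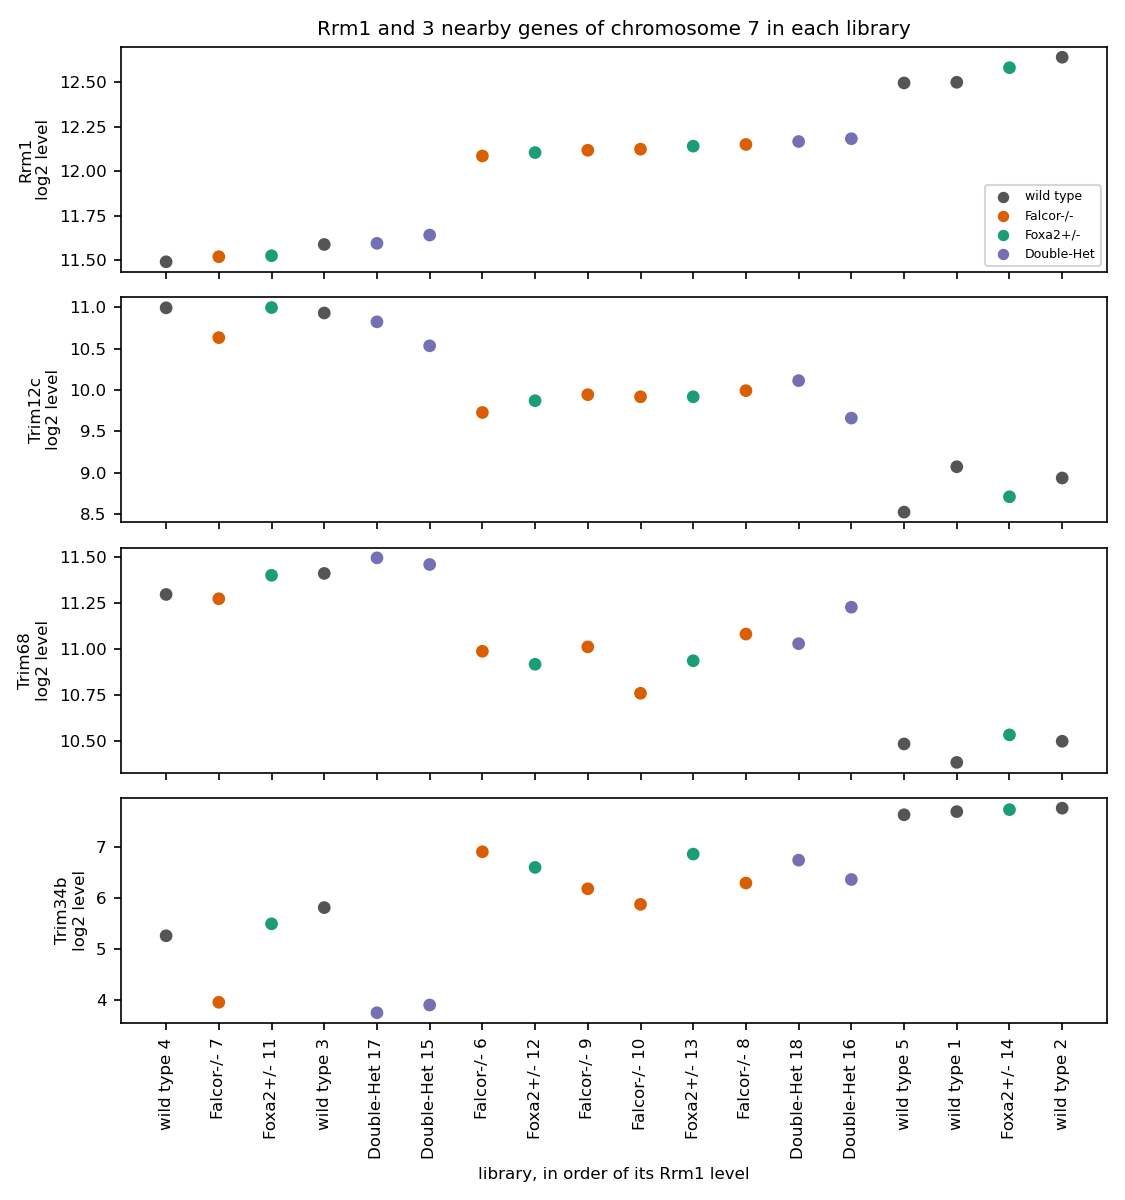
Level of Rrm1 (log2 units) in the 18 libraries in rising order with genotype as colour, above Trim12c, Trim68 and Trim34b in the same libraries. Rrm1 steps from 11.49 to 11.64 over 12.09 to 12.18 to 12.50 to 12.64 while Trim12c falls from 11.00 to 8.52, with libraries of at least 2 genotypes at each step.

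Double-Het was compared with wild type in the same way, and 0 of 18 S phase and 0 of 20 mitosis genes passed, where 14.8% of all genes did. At an unadjusted p below 0.05 there were 2 S phase genes, Ccne1 and Cdt1, and 1 mitosis gene, Bub1b, against 29.8% of all genes. The S phase median was 0.10 with 17 of 18 above wild type and the mitosis median 0.08 with 14 of 20, against a median of 0.07 and 61.1% over all genes. With the endothelial marker mean as a covariate the medians turned to -0.08 and -0.20. That mean did not overlap between Double-Het and wild type, so covariate and genotype cannot be told apart in this fit. Bub1b, of the spindle checkpoint, was 10.57, 10.38, 10.60 and 10.64 in Double-Het and 10.03, 9.61, 10.70, 10.36 and 9.88 in wild type, a change of 0.43 (SE 0.19, limma adjusted p = 0.126). It was called without wild-type replicate 3, its highest wild-type library, and Ccne1 was called without wild-type replicate 5.

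The comparisons with wild type share the same 5 wild-type libraries, so their changes are not independent. Side by side, in Falcor-/-, Foxa2+/- and Double-Het, the change was 0.40, 0.17 and 0.21 for Pcna, 0.47, -0.01 and 0.10 for Rrm2 and 0.55, -0.03 and 0.37 for Gins2. It was 0.48, -0.03 and 0.42 for Birc5 and 0.32, 0.46 and 0.40 for Bub1.

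The mutant genotypes were then compared with each other. Between Falcor-/- and Foxa2+/- 1 of 18 S phase genes passed, Rrm2, and 0 of 20 mitosis genes, where 16.7% of all genes did. Rrm2 was higher in Falcor-/- by 0.47 (SE 0.15, limma adjusted p = 0.0407, exact permutation p = 0.0238), with Foxa2+/- replicate 11 inside the Falcor-/- range. The S phase median was 0.29 and the mitosis median 0.17, against 0.00 over all genes, and 7 S phase and 3 mitosis genes had an unadjusted p below 0.05, as did 36.3% of all genes. Without Foxa2+/- replicate 11 the test called 6 S phase genes, Cdc45 (0.56), Uhrf1 (0.78), Rrm2 (0.62), Mcm6 (0.35), Pcna (0.33) and Mcm3 (0.49), and 2 mitosis genes, Birc5 (0.73) and Nusap1 (0.46). That run called 15.7% of all genes. In contrast, the count fell to 0 S phase genes without Falcor-/- replicate 6, 9 or 10 or Foxa2+/- replicate 12, 13 or 14. Those runs called only 5.01% to 9.43% of all genes.

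Between Double-Het and Foxa2+/- 0 of 18 and 0 of 20 passed, where 2.43% of all genes did, and 2 S phase and 0 mitosis genes had an unadjusted p below 0.05 in limma, as did 18.2% of all genes. The S phase median was 0.19 with 17 of 18 genes higher in Double-Het, and the mitosis median was 0.09 with 14 of 20. Over all genes the median was 0.02 and 54.2% were higher in Double-Het. Mcm6 had the smallest adjusted p: it was 12.10, 11.89, 11.91 and 11.78 in Double-Het, and all but replicate 11 of Foxa2+/- lay below these. The change was 0.28 (SE 0.11, limma adjusted p = 0.164), and it was called (0.39, limma adjusted p = 0.0410) without that library.

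Between Double-Het and Falcor-/- 0 of 18 and 0 of 20 passed, where 5.15% of all genes did, and 2 S phase and 0 mitosis genes had an unadjusted p below 0.05 in limma, as did 21.2% of all genes. The medians were -0.06 and -0.05. Rrm2 and Cdc45 were lower in every Double-Het library than in every Falcor-/- library, as 4.05% of all genes were. Rrm2 differed by -0.37 (SE 0.15, limma adjusted p = 0.160, exact permutation p = 0.00794) and Cdc45 by -0.34 (SE 0.16, limma adjusted p = 0.229, exact permutation p = 0.0159).

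Other genes of the cycle were taken from 5 lists beside the members. Of 42 further replication genes, 4 rose in Falcor-/- against wild type and 0 fell, and 4 rose and 0 fell in Double-Het, where 9.47% and 14.8% of all genes were called in either direction. In each comparison they were Rfc5, a subunit of the loader that places PCNA on DNA, Tipin of the fork protection complex, Gmnn, the geminin gene that holds back Cdt1, and Pold2 of DNA polymerase delta, the last named after its values were seen. In Falcor-/- and Double-Het, side by side, the rise was 0.43 and 0.41 for Rfc5, 0.54 and 0.45 for Tipin, 0.58 and 0.72 for Gmnn and 0.39 and 0.38 for Pold2. Rfc5 was called in every run that left out 1 library in both comparisons, and Tipin in all 10 in Falcor-/- and 7 of 9 in Double-Het. Of this list 0 passed in Foxa2+/-, with 2 at an unadjusted p below 0.05 in limma, against 6.11% and 19.2% of all genes.

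Of 48 further mitosis genes, Pttg1 rose in Falcor-/-, Spc24 in Foxa2+/- and both in Double-Het, which is a smaller share than the 9.47%, 6.11% and 14.8% of all genes called. Pttg1 encodes securin, which keeps sister chromatids joined until anaphase. It was 8.79, 8.97, 9.55, 10.94 and 9.26 in wild type and 11.21, 11.01, 11.63, 11.82 and 11.64 in Falcor-/-. All Falcor-/- libraries lay above all wild-type libraries, of which replicate 4 was far above the rest. Pttg1 rose by 1.96 (SE 0.37, limma adjusted p = 0.00904), and this call held in all 10 runs that left out 1 library. It was 9.56, 9.82, 9.09 and 9.93 in Foxa2+/- and 11.53, 11.65, 9.90 and 11.13 in Double-Het, where it rose by 1.55 (SE 0.39, limma adjusted p = 0.0137). Double-Het replicate 17 was near the Foxa2+/- levels and the other 3 near those of Falcor-/-. Spc24, of the NDC80 kinetochore complex, rose by 0.57 in Foxa2+/- (limma adjusted p = 0.0394) and by 0.86 in Double-Het (limma adjusted p = 0.00150). In Foxa2+/- the Spc24 call was lost in 7 of 9 runs without 1 library.

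Of 18 genes of cycle inhibitors and arrest, 2 rose and 1 fell in Falcor-/-, 0 passed in Foxa2+/- (5 at an unadjusted p below 0.05 in limma), and 1 rose and 2 fell in Double-Het. The called share was 3 of 18 in Falcor-/- and in Double-Het, against 9.47% and 14.8% of all genes. In Foxa2+/- 6.11% of all genes were called and 19.2% had an unadjusted p below 0.05 in limma. Cdkn1a, the p21 gene, was 13.35, 13.37, 13.85, 13.83 and 13.20 in wild type, 13.49, 13.56, 13.79 and 13.23 in Foxa2+/- and 12.81, 12.56, 12.31 and 12.84 in Double-Het. Every Double-Het library lay below every library of both those genotypes. Cdkn1a changed by -0.89 (SE 0.15, limma adjusted p = 0.000921) from wild type and by -0.89 (SE 0.16, limma adjusted p = 0.00857) from Foxa2+/-. In Falcor-/- it was 13.11, 13.01, 13.01, 13.10 and 13.47, above every Double-Het library and in or below the wild-type range. Ccng2, a cyclin linked to arrest, fell in Double-Het by 0.46 (limma adjusted p = 0.00158), and Wee1, the kinase that holds Cdk1 inactive, rose by 0.72 (limma adjusted p = 0.0283).

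Cdkn1c, the p57 gene, rose in Falcor-/- from a mean of 13.30 to 14.30 (limma adjusted p = 0.0206), together with Gadd45a (0.58, limma adjusted p = 0.0262), while Ccng1 fell by 0.23 (limma adjusted p = 0.0119). Leaving out 1 library ended the Cdkn1c call in 3 of 10 runs, that of Gadd45a in 5 of 10 and that of Ccng1 in 0 of 10. Cdkn1c also stood above Foxa2+/- in Falcor-/- by 1.51 (limma adjusted p = 0.00250) and in Double-Het by 1.23 (limma adjusted p = 0.0220). The INK4 genes Cdkn2b and Cdkn2c were higher in Falcor-/- than in Foxa2+/- by 0.76 and 0.38, and Ccng2 was lower in Double-Het than in Foxa2+/- by 0.39. Without 1 library, the calls against Foxa2+/- were lost in 1 of 9 runs for Cdkn2b, 5 of 9 for Cdkn2c and 5 of 8 for Ccng2. Between Double-Het and Falcor-/-, Gadd45g differed by -0.65 and Btg1 by -0.36, with the call lost in 5 and 7 of 9 such runs. Cdkn2a and Cdkn2d were not analysed here.

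Of 17 regulators of cycle transcription, Mybl2, the B-Myb partner of MuvB, rose in Falcor-/- by 0.42 (limma adjusted p = 0.0358), E2f3 rose in Double-Het by 0.44 (limma adjusted p = 0.00957), and E2f1 was higher in Falcor-/- than in Foxa2+/- by 0.49 (limma adjusted p = 0.0435). In Foxa2+/- 0 of 17 passed against wild type, with 4 at an unadjusted p below 0.05 in limma, against 6.11% and 19.2% of all genes. Of 14 G1 cyclins and kinases, Cks1b, an adaptor of cyclin-dependent kinases, rose in Falcor-/- by 0.56 (limma adjusted p = 0.0470) and the D cyclin gene Ccnd2 fell in Foxa2+/- by 0.56 (limma adjusted p = 0.0282). None of the 14 passed in Double-Het, with 3 at an unadjusted p below 0.05 in limma, against 14.8% and 29.8% of all genes. Cdk4 and Mnat1 were higher in Falcor-/- than in Foxa2+/- by 0.39 and 0.41. Leaving out 1 library ended the calls of Ccnd2 and Cdk4 in 5 of 9 runs, that of E2f1 in 6 and that of Mnat1 in 7. Each of these lists had at most 2 genes called in a comparison, where 2.43% to 16.7% of all genes were called.

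The same comparison of Falcor-/- with Foxa2+/- called 4 further replication genes, among them Rpa1 (0.28), Rfc5 (0.28) and Tipin (0.37), and 4 further mitosis genes, among them Pttg1 (1.86), the chromatin gene Hmgb2 (0.52) and the histone gene H2afx (0.43), all higher in Falcor-/-. These were 4 of 42 and 4 of 48, where 16.7% of all genes were called. Leaving out 1 library ended the call in 5 of 9 runs for Rpa1 and Hmgb2, 6 for Rfc5, 7 for Tipin and H2afx and 0 for Pttg1. Against wild type, in Falcor-/-, Cks1b and Pold2 lost the call in 8 of 10 such runs, Mybl2 and Gmnn in 6 of 10. In Double-Het against wild type, Cdkn1a, Ccng2, E2f3, Gmnn and Spc24 lost it in 0 of 9. There Pttg1 lost it in 2 of 9 runs, Wee1 in 5 and Pold2 in 7. With the endothelial marker mean as a covariate, 10 of the 10 calls of these lists in Double-Het against wild type were lost, as were 7 of 10 in Falcor-/- against wild type and 14 of 14 in Falcor-/- against Foxa2+/-. Over all genes, that covariate took the called share from 14.8% to 0.0131%, 9.47% to 1.57% and 16.7% to 0.111%, in this order. The losses were thus not particular to these lists. Endothelial means did not overlap between Double-Het and wild type or between Falcor-/- and Foxa2+/-. In these comparisons covariate and genotype cannot be told apart.

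Some levels may include reads of other genes. Pcna, Tyms, Ccnb1 and Ccnb2 have pseudogenes named after them, and 17 members overlap another annotated gene, 14 of them on the other strand, while the strand setting of the counting is not given in the sources used here.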

How the data were processed

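RNA-seq levels of 18 libraries were used. The authors deposited log2 expression values per Ensembl gene, and per the submitters' processing notes STAR, limma and the mm9 build were used. Not given in the sources used here are the tool versions, the counting, its strand setting and the annotation. All libraries have nearly the same distribution (each has a median of 11.03), as quantile normalization gives, so no counts are held, the depth is unknown and its effect on precision could not be given.

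Samples were grouped by the genotype in the labels. Symbols came from GENCODE M21 for 14994 of 15544 genes. Genes with a mean of at least 6 log2 units were kept (295 were removed), and limma 3.58.1 in R 4.3.3 fitted 1 mean per genotype over all 18 libraries with an intensity trend in the variance prior. The p-values were Benjamini-Hochberg adjusted over 15249 genes in each of 6 comparisons, and a gene was called below 0.05. Exact permutation tests were two-sided over the libraries of a comparison. The fit was tested on simulated data. Pandas 2.3.3 and matplotlib 3.10.9 were used for counts and plots. The endothelial and macrophage covariates were the mean levels of the 15 markers of each list.

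The members and lists were chosen with earlier results of these data known. Levels in every library were given for members called in any comparison and for Mki67, Top2a, Cdk1, Ccnb1, Pcna and Mcm2, and at most 3 called genes were named for each further list and comparison. Other members with values in each library (Birc5, Bub1, Bub1b, Cdc45, Uhrf1, Mcm6) were picked after their values were seen. Alternatives were other filters, scalings, library weights, fits of only the compared genotypes, covariates and leaving out each library.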

Additional observations from a re-analysis of the deposited data

Results flagged for a closer look

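In each genotype the highest and the lowest library of each member were compared with the rest, and 13 of 152 groups had a library whose gap to the nearest other library was large against the range of the group. Chance alone gives this in about 1 in 20 groups. Of the 13, 6 were Foxa2+/- replicate 11 and 2 were wild-type replicate 2, and members of 1 library are not independent.

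Foxa2+/- replicate 11 was high for Cdc45 (9.16, with 8.46 next), Mcm4 (11.22, with 10.93 next), Mcm6 (11.97, with 11.56 next), Tyms (10.35, with 9.63 next), Uhrf1 (10.76, with 9.89 next) and Cenpe (10.05, with 9.66 next). Wild-type replicate 2 was low for Mcm3 (10.45, with 11.03 next) and Cdk1 (9.28, with 9.90 next).

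The other 5 lay in different libraries. Mcm3 was low in Falcor-/- replicate 8 (10.70, with 11.14 next) and Mcm7 high in Falcor-/- replicate 6 (11.94, with 11.72 next). Gins1 was high in wild-type replicate 3 (7.96, with 7.53 next). Rrm1 was low in Falcor-/- replicate 7 (11.52, with 12.09 next), the only Falcor-/- library at the lowest of its 3 levels. Ccnb1 was low in Double-Het replicate 16 (8.50, with 8.99 next).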

How the results depend on the processing

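Under the other settings, 757 of 855 checks of single genes kept their side of the threshold, 95 lost their call and 3 gained one. Without 1 library, 681 of 862 kept it, 179 lost their call and 2 gained one. The sign changed in 30 and 49 of these checks, in 0 of those of genes called in the fit reported. To the S phase genes called in Falcor-/- against wild type (3), library weights or a filter at a mean of 8 added Cdt1. Their count was 1 when only the libraries compared were fitted and 1 with cyclic loess. The count was 0 with either the endothelial or the macrophage covariate and 0 to 3 when a library was left out. For S phase genes in Falcor-/- against Foxa2+/- (1) it was 0 when only those libraries were fitted, 0 with the endothelial covariate, 2 with the macrophage covariate, 2 with library weights and 0 to 6 when a library was left out. In Double-Het against wild type (0) it was 3 with library weights, 1 without the intensity trend and 0 to 1 when a library was left out, and in Double-Het against Foxa2+/- (0) it was 1 with library weights and 0 to 1. For mitosis genes (0 in each) it was 1 with library weights and 0 to 1 in Falcor-/- against wild type, 2 with library weights and 0 to 2 in Falcor-/- against Foxa2+/-, and 0 to 1 in Double-Het against wild type. With the endothelial covariate the S phase and mitosis medians were -0.26 and -0.26 in Foxa2+/- and -0.081 and -0.20 in Double-Het, and leaving out a library gave the S phase median of Foxa2+/- a range of -0.19 to 0.0092. In Foxa2+/- and Double-Het the endothelial means lay below wild type without overlap, so covariate and genotype cannot be told apart there. The cause of the differences between settings was not tested.

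Over all genes, the 9.47% called in Falcor-/- against wild type became 22.6% with library weights and 1.57% with the endothelial covariate, and 2.32% to 25.7% when a library was left out. With that covariate the 14.8% of Double-Het became 0.0131%. Library weights called 32.4% of all genes in Double-Het against wild type, 31.2% in Falcor-/- against Foxa2+/- and 13.9% in Double-Het against Foxa2+/-. No paired analysis was possible because the genotypes share no replicate numbers. With 4 or 5 libraries a group and no depth, small changes may have been missed. A member that was not called is not shown to be unchanged.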
